A study of Mus musculus with 12 samples.

Results

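Of the 32419 genes listed in RNA-seq tables from cultured mouse brain endothelial cells (BECs), 127 encode potassium channels, voltage-gated calcium channels, TRP channels of the C, M and V families, or Piezo channels. They were chosen by symbol alone (Kcn, Cacn, Trpc, Trpm or Trpv followed by the subunit's letters and number, and Piezo1 or Piezo2). No expression value decided which genes matched, although the choice was made with earlier results of these data known. The cells came from C57BL/6 mice of 8 weeks that carried the cortistatin gene (Cort+/+) or lacked it (Cort-/-), each replicate being a primary culture pooled from 3 mice and enriched for BECs with puromycin. Cultures were kept for 24 h under normoxia and normoglycemia (NX/NG, 21% O2 and 5.5 mM glucose), or for 4 h at 1% O2 without glucose or serum and then 20 h of reoxygenation in medium with glucose and serum (OGD-R), a culture model of ischemic stroke. There were 3 Cort+/+ and 2 Cort-/- libraries in each environment. So few libraries often separate by genotype by chance. A lack of overlap between groups is therefore given as a description and is no test, and the share of all genes that separate was not computed. Cort+/+ and Cort-/- are compared within each environment, OGD-R and NX/NG within each genotype. The deletion was present in the mice as a whole, and all cells of 1 culture, of whatever type, were sequenced together.

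Ion channels let charged ions cross the cell membrane. In brain endothelium, inward rectifier and calcium-activated potassium channels hyperpolarize the cell, which draws calcium in through channels that are not opened by voltage. TRP and Piezo channels carry calcium and other cations in response to stretch, shear stress, lipids or receptor signals. Voltage-gated calcium channels are best known from smooth muscle, pericytes and neurons, where depolarization opens them and the calcium that enters drives contraction or transmitter release.

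Each library held 12386048 to 12390428 reads on genes, a nearly constant number. *Cort* itself was listed at 0.241, 0.112 and 0.128 RPKM in the Cort+/+ NX/NG libraries and at 0, 0 and 0.124 RPKM in the Cort+/+ OGD-R libraries, which is at most 2 reads. It was at 0 in all 4 Cort-/- libraries, although counts this low separate the genotypes little. Ribosomal RNA took 7.64% to 15.8% of the reads in 8 libraries, and 0.0775% and 0.0951% in Cort+/+ OGD-R replicate 1 and Cort-/- OGD-R replicate 3. Ribosomal RNA here means the entry *Rn18s-rs5* alone. The 8 endothelial markers summed to between 816 and 1254 RPKM, led by *Cdh5* and *Pecam1*, although *Slco1a4*, a transporter of the blood-brain barrier, stayed between 0.0859 and 0.496 RPKM. Of the smooth muscle markers, *Acta2* lay between 630 and 1080 RPKM and *Myh11* between 0.506 and 2.11 RPKM. The choroid plexus markers summed to 18.4 to 26.3 RPKM, mostly *Clic6* and *Aqp1*, and the microglial ones to 1.32 to 2.06 RPKM, mostly *Csf1r*. Each of the 5 astrocyte, 6 neuron and 4 oligodendrocyte markers stayed under 1 RPKM. In such bulk cultures, fewer cells of a type and less RNA per cell cannot be told apart.

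Few channel genes were expressed at an appreciable level. The mean of at least 1 group reached 1 RPKM for 18 of the 127 genes (14.2%), against 44.7% of all listed genes. RPKM counts reads relative to transcript length and library size, so levels can be compared between genes. By group, 17 channel genes reached a mean of 1 RPKM in Cort+/+ NX/NG, 16 in Cort-/- NX/NG, 17 in Cort+/+ OGD-R and 17 in Cort-/- OGD-R. In all 4 groups 15 did so, and 11 were at or above 1 RPKM in every library. *Cacna1c* fell short of that mean only in Cort-/- NX/NG, *Trpc1* only in Cort+/+ OGD-R, and *Piezo2* exceeded it only in Cort+/+ OGD-R. Of the other 109 genes, 9 had their highest group mean between 0.5 and 1 RPKM, 37 between 0.1 and 0.5 RPKM, and 63 below 0.1 RPKM. No library held more than 3 reads for 42 of the channel genes. A single gene, *Piezo1*, exceeded 10 RPKM and made up 45.7% of the summed mean level of all 127. The summed level ran from 105 to 126 RPKM across libraries, and from 59.3 to 65.7 RPKM without *Piezo1*.

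**Figure D1:**
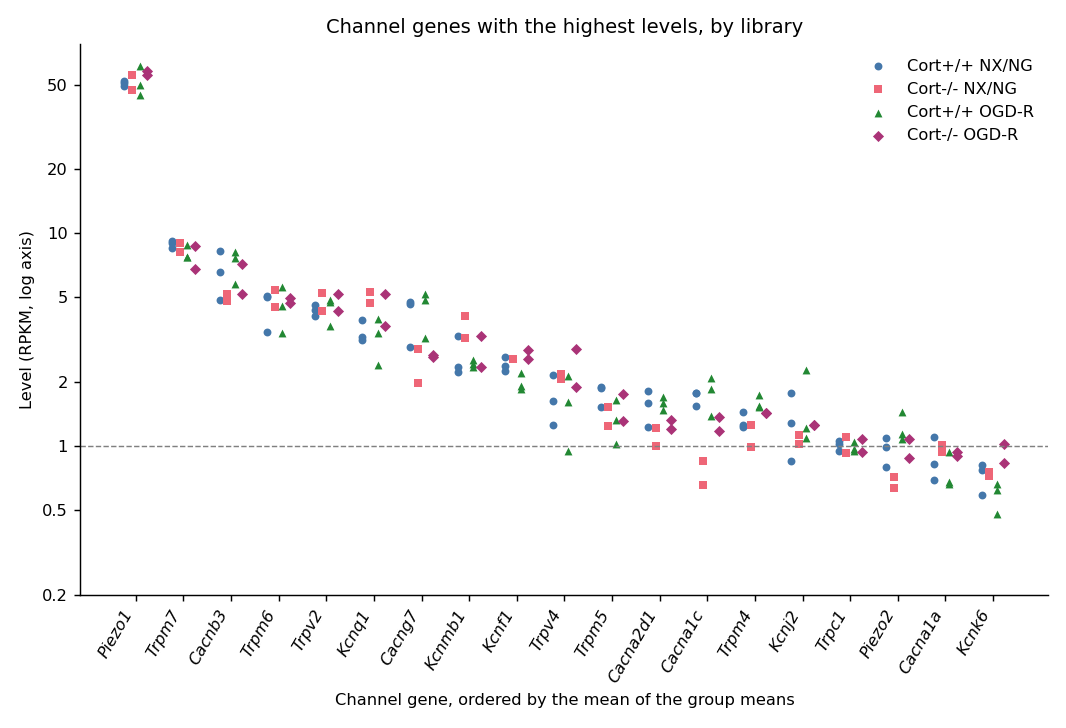
Level (RPKM, log axis) of channel genes with a high mean of group means, 1 point per library, with colour and shape for the 4 groups and a dashed line at 1 RPKM. *Piezo1* sits at 44.7 to 61.0 RPKM, apart from all others, which lie under 10 RPKM.

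*Piezo1* encodes a mechanically gated cation channel that endothelium uses to sense shear stress. Its level was 50.8, 52.0 and 49.5 RPKM in Cort+/+ NX/NG, 55.6 and 47.1 RPKM in Cort-/- NX/NG, 61.0, 44.7 and 49.7 RPKM in Cort+/+ OGD-R, and 57.8 and 55.3 RPKM in Cort-/- OGD-R. The groups overlapped, and the highest library stood only 1.36 times above the lowest. The difference between genotypes in log2(RPKM + 0.1) was 0.01 under NX/NG (95% interval from limma, -0.20 to 0.23) and 0.14 under OGD-R (-0.24 to 0.52), with n = 3 and 2, and neither interval excludes 0. *Piezo2*, its relative known from touch-sensing neurons, was at 0.989, 1.09 and 0.798 RPKM in Cort+/+ NX/NG and 0.712 and 0.637 RPKM in Cort-/- NX/NG, then 1.44, 1.14 and 1.08 RPKM in Cort+/+ OGD-R and 1.08 and 0.880 RPKM in Cort-/- OGD-R. Its Cort-/- libraries lay below those of Cort+/+ in each environment. Of the *Piezo1* exons, 2441 of 9935 bases overlap exons of *Ctu2* on the opposite strand, whose level was 21.2 to 26.9 RPKM, and how the counting treated strand is not given in the sources used here.

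The RefSeq window from 250 bases before to 50 after the transcript start is printed for *Piezo1*, the channel gene with the highest level, and for *Cacna1c*, the channel gene with the lowest p between genotypes, each from the minus strand of GRCm38.p6. *Cacna1c* has 3 such windows; those with the most and the fewest CG are shown, and these data do not tell which start was used. Capitals mark CG dinucleotides. The *Piezo1* window, chr8:122551280-122551579, holds 34 CG, the *Cacna1c* windows 57 (chr6:119108446-119108745) and 3 (chr6:119196360-119196659).
Piezo1: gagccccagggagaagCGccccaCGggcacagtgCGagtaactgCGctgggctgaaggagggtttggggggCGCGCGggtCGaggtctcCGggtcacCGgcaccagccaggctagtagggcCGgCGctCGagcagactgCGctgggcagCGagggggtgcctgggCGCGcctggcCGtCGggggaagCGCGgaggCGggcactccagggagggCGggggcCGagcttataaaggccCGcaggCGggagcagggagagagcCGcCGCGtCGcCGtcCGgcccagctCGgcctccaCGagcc
Cacna1c, window with the most CG: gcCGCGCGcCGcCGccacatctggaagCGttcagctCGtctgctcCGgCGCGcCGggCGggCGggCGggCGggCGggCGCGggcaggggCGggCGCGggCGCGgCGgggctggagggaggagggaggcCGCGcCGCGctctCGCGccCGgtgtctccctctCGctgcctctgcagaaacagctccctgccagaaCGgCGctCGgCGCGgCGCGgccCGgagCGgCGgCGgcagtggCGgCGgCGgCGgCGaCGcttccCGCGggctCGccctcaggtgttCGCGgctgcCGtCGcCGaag
Cacna1c, window with the fewest CG: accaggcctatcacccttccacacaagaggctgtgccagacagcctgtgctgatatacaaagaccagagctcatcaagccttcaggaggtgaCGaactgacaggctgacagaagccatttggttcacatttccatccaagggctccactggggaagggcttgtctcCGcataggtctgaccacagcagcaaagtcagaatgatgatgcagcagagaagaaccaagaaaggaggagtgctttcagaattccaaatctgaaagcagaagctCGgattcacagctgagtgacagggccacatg
Windows were found for 97 of the 127 channel genes. The median CG count was 9 over the 19 windows of channel genes at 1 RPKM or more and 9 over those of channel genes below it, against 21 over the windows of all genes at 1 RPKM or more. At least 20 CG were present in 36.8%, 31.3% and 53.4% of these windows.

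Of the TRPM family, 4 of 8 genes reached 1 RPKM. *Trpm7*, a magnesium- and calcium-permeable channel joined to a protein kinase, was second only to *Piezo1*, at 9.19, 8.57 and 8.96 RPKM in Cort+/+ NX/NG, 9.05 and 8.18 RPKM in Cort-/- NX/NG, 7.72, 7.78 and 8.84 RPKM in Cort+/+ OGD-R, and 8.68 and 6.81 RPKM in Cort-/- OGD-R. *Trpm6*, the other channel kinase and best known from magnesium uptake in kidney and gut, lay between 3.38 and 5.58 RPKM with all 4 groups overlapping. *Trpm4* (0.987 to 1.74 RPKM) and *Trpm5* (1.02 to 1.90 RPKM) encode calcium-activated channels for sodium and potassium. Of the *Trpm5* exons, 220 of 6398 bases overlap *Tssc4* on the other strand, a gene at 18.5 to 26.3 RPKM. *Trpm2*, a channel gated by ADP-ribose under oxidative stress, stayed at or below 0.00696 RPKM, and *Trpm3* between 0.0147 and 0.309 RPKM.

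The TRPV family was represented by *Trpv2* and *Trpv4*, and the other 4 members never exceeded 3 reads. *Trpv2* lay between 3.66 and 5.25 RPKM. *Trpv4*, an endothelial calcium channel opened by swelling, stretch and arachidonic acid metabolites, was at 1.26, 2.17 and 1.64 RPKM in Cort+/+ NX/NG, 2.19 and 2.07 RPKM in Cort-/- NX/NG, 2.13, 1.61 and 0.944 RPKM in Cort+/+ OGD-R, and 1.90 and 2.86 RPKM in Cort-/- OGD-R. The Cort-/- values were in the upper part of the range, but the groups overlapped in both environments. Of the TRPC genes, which encode receptor-operated cation channels, *Trpc1* alone reached 1 RPKM and was nearly constant, from 0.928 to 1.10 RPKM. *Trpc6* was lower (0.182 to 0.464 RPKM), and *Trpc4*, described in endothelium, did not exceed 0.0544 RPKM.

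Among the 37 pore subunits of voltage-gated potassium channels, 3 reached 1 RPKM and 14 never exceeded 3 reads. *Kcnq1*, the pore of the slow delayed rectifier of the heart, was the highest, at 3.17, 3.25 and 3.92 RPKM in Cort+/+ NX/NG, 4.71 and 5.29 RPKM in Cort-/- NX/NG, 2.40, 3.41 and 3.97 RPKM in Cort+/+ OGD-R, and 5.21 and 3.69 RPKM in Cort-/- OGD-R. The groups were separate under NX/NG, with Cort-/- higher, and overlapped under OGD-R. The antisense RNA *Kcnq1ot1* shares 121 of the 4093 exon bases of *Kcnq1* and lay between 0.188 and 0.363 RPKM. *Kcnf1*, a subunit that forms no channel alone but modifies others, was at 2.37, 2.62 and 2.24 RPKM in Cort+/+ NX/NG, 2.57 and 2.56 RPKM in Cort-/- NX/NG, 2.20, 1.92 and 1.85 RPKM in Cort+/+ OGD-R, and 2.56 and 2.83 RPKM in Cort-/- OGD-R. Its genotypes were separate under OGD-R and overlapped under NX/NG. The voltage-gated genes described in vessel walls were low, *Kcna5* at 0 to 0.151 RPKM and *Kcnq5* at 0.158 to 0.464 RPKM.

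Inward rectifiers set the resting potential, and 1 of 12 was expressed. *Kcnj2*, encoding Kir2.1, through which brain capillaries sense potassium released by neurons, was at 1.78, 0.853 and 1.29 RPKM in Cort+/+ NX/NG, 1.03 and 1.13 RPKM in Cort-/- NX/NG, 1.22, 1.09 and 2.27 RPKM in Cort+/+ OGD-R, and 1.25 and 1.25 RPKM in Cort-/- OGD-R. Both Cort-/- groups fell inside the Cort+/+ range. *Kcnj8*, the pore of the ATP-sensitive channel of pericytes, had at most 1 read in any library (0 to 0.0353 RPKM), and *Abcc9*, which encodes its sulfonylurea receptor, stayed at or below 0.0204 RPKM. The glial rectifiers *Kcnj10* and *Kcnj16* did not exceed 0.0291 and 0.0213 RPKM, and *Kcnj13*, an epithelial one, ran from 0 to 0.329 RPKM.

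None of the 13 genes for two-pore potassium channels, which carry background current, reached a group mean of 1 RPKM. The highest, *Kcnk6*, lay between 0.477 and 1.03 RPKM, and *Kcnk2*, a stretch- and lipid-gated channel of brain vessels, between 0.250 and 0.669 RPKM. The calcium-activated channels through which endothelium hyperpolarizes were also low, *Kcnn4* at 0.138 to 0.716 RPKM and *Kcnn3* at 0.0163 to 0.102 RPKM. Of the 13 auxiliary potassium channel genes, *Kcnmb1* alone was expressed, at 2.22, 2.36 and 3.29 RPKM in Cort+/+ NX/NG, 3.21 and 4.09 RPKM in Cort-/- NX/NG, 2.35, 2.54 and 2.44 RPKM in Cort+/+ OGD-R, and 3.30 and 2.34 RPKM in Cort-/- OGD-R. It encodes the beta subunit that raises the calcium sensitivity of the large-conductance potassium channel in smooth muscle. The pore of that channel, *Kcnma1*, was at 0 to 0.0269 RPKM, so the auxiliary subunit was measured at a far higher level than its pore. *Kcne3* (0.202 to 0.815 RPKM), *Kcne4* (0.219 to 0.644 RPKM), *Kcnmb4* (0.103 to 0.515 RPKM) and *Kcnab2* (0.135 to 0.344 RPKM), partners of potassium channel pores, stayed under 1 RPKM.

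Voltage-gated calcium channels consist of a pore and of beta, alpha-2-delta and, in some, gamma subunits. Of 9 pore genes, *Cacna1c* alone was expressed, which encodes the L-type channel Cav1.2. Its level was 1.78, 1.54 and 1.78 RPKM in Cort+/+ NX/NG against 0.852 and 0.655 RPKM in Cort-/- NX/NG, and 2.08, 1.39 and 1.86 RPKM in Cort+/+ OGD-R against 1.17 and 1.37 RPKM in Cort-/- OGD-R. The Cort-/- libraries lay below the Cort+/+ libraries in both environments, by a narrow margin under OGD-R, although so few libraries often separate by chance. *Cacna1a*, the neuronal P/Q-type pore, came next, at 0.666 to 1.10 RPKM, while the T-type genes *Cacna1g* and *Cacna1h* did not exceed 0.135 and 0.156 RPKM and the L-type gene *Cacna1d* did not exceed 0.0376 RPKM.

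Auxiliary calcium channel genes were more abundant than pores, 3 of 12 being expressed and their sum being 13.5 ± 2.98 RPKM (SD, n = 3) in Cort+/+ NX/NG against 3.21 ± 0.178 RPKM (n = 3) for the 9 pores. *Cacnb3*, a beta subunit that carries the pore to the membrane, was at 6.61, 8.27 and 4.84 RPKM in Cort+/+ NX/NG, 5.21 and 4.79 RPKM in Cort-/- NX/NG, 7.65, 8.15 and 5.76 RPKM in Cort+/+ OGD-R, and 5.21 and 7.15 RPKM in Cort-/- OGD-R. Its groups overlapped. *Cacng7*, a gamma subunit better known as a partner of AMPA-type glutamate receptors, was at 4.78, 4.65 and 2.91 RPKM in Cort+/+ NX/NG and 1.99 and 2.87 RPKM in Cort-/- NX/NG. Under OGD-R it was at 5.19, 3.21 and 4.87 RPKM in Cort+/+ and 2.62 and 2.67 RPKM in Cort-/-. All 4 Cort-/- values were below all 6 Cort+/+ values, with the lowest Cort+/+ library close to the Cort-/- range. *Cacna2d1*, the target of gabapentin-type drugs, was at 1.81, 1.60 and 1.24 RPKM against 1.21 and 1.00 RPKM under NX/NG and at 1.60, 1.47 and 1.70 RPKM against 1.33 and 1.20 RPKM under OGD-R, again with the Cort-/- libraries lower. The other beta subunit genes *Cacnb1*, *Cacnb2* and *Cacnb4* lay between 0.101 and 0.775 RPKM.

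**Figure D2:**
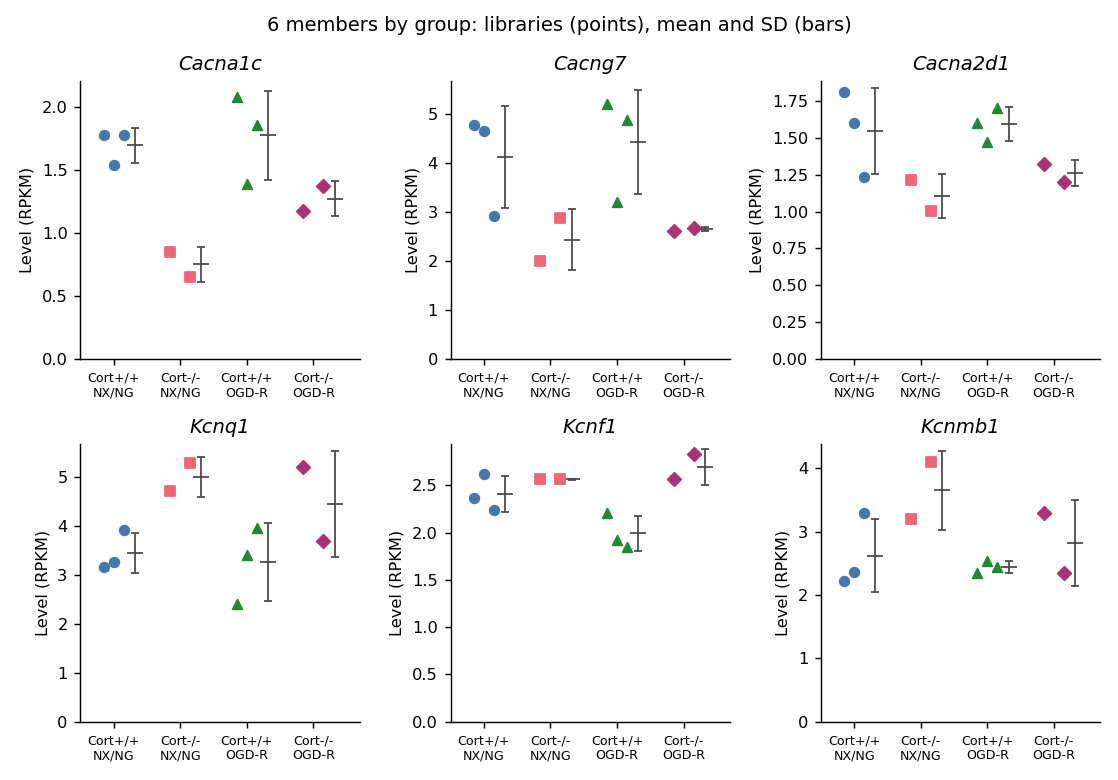
Level (RPKM, linear axis from 0) of the 6 channel genes with an unadjusted p under 0.05 between genotypes over both environments, with 1 point per library and the mean and SD of each group (n = 3 for Cort+/+, n = 2 for Cort-/-). The calcium channel genes *Cacna1c*, *Cacng7* and *Cacna2d1* are lower in Cort-/- and the potassium channel genes *Kcnq1*, *Kcnf1* and *Kcnmb1* have higher Cort-/- means, with 1 Cort-/- OGD-R library of *Kcnmb1*, at 2.34 RPKM, below all Cort+/+ OGD-R libraries.

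The first question of the design is what loss of cortistatin changes under normal culture. Under NX/NG, no channel gene passed the adjusted threshold of 0.05 in limma on log2(RPKM + 0.1), nor did any of the 13722 genes tested (0%). Genes entered the test if their level averaged 1 RPKM or more over the libraries compared, which held for 17 channel genes. Unadjusted p was under 0.05 for 3 of the 17, against 13.3% of all genes tested. The median log2 difference was 0.00 for the channel genes and 0.01 for all genes. The lowest p belonged to *Cacna1c*, with a log2 difference of -1.08 (SE 0.20, 95% interval -1.60 to -0.57, adjusted p = 0.216 by limma). It was the single channel gene among the 51 genes (0.372%) called by limma-voom on the reads recovered from the RPKM, with a log2 difference of -1.18 and an adjusted p of 0.0301. *Kcnq1* differed by 0.53 (SE 0.12, adjusted p = 0.266 by limma) and *Cacng7* by -0.72 (SE 0.27, adjusted p = 0.363 by limma). Next came *Kcnmb1* at 0.47 and *Cacna2d1* at -0.44, both with intervals that include 0. Without Cort+/+ replicate 3, 6 of 16 channel genes had p under 0.05, against 18.0% of all genes in that fit. With no filter on level it was 7 of 120 (5.83%), below the 8.39% of all genes.

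Some cell type markers differed with the genotype under NX/NG. The endothelial markers summed to 816 to 1062 RPKM in Cort+/+ and 1058 to 1183 RPKM in Cort-/-. Of 7 tested, 1 was higher in Cort-/- at an unadjusted p under 0.05 in limma (*Erg*, at 0.51) and 0 were lower. Over both environments 3 were higher and 0 lower, against 15.5% of all genes. The part of endothelial cells in the channel genes that were higher in Cort-/- was not tested. Of the 4 smooth muscle markers tested, 0 had an unadjusted p under 0.05 in limma, against 13.3% of all genes tested. Their log2 differences ran from -0.22 (*Tagln*) to 0.29 (*Myh11*). Of the choroid plexus markers tested, *Aqp1* was lower in Cort-/- at -1.74 and *Clic6* stood at 0.17. The 7 pericyte markers summed to 18.0 to 21.4 RPKM in Cort+/+ and 7.59 to 10.2 RPKM in Cort-/-, of which *Pdgfrb* took 12.1 to 13.5 and 5.17 to 7.66 RPKM. All 3 pericyte markers tested were lower in Cort-/- at an unadjusted p under 0.05, with log2 differences from -0.86 (*Rgs5*) to -1.91 (*Cspg4*). *Kcnj8*, *Abcc9* and *Higd1b*, which define brain pericytes, were at or near 0 in every library, and *Higd1b* was at 0 in 8. The 5 fibroblast markers summed to 157 to 224 RPKM in Cort+/+ and 62.8 to 93.6 RPKM in Cort-/-. These sums were almost wholly *Col1a1* and *Col1a2*, so they do not show the 5 markers falling together. *Pdgfra* went the other way, at 0.319 to 0.366 RPKM in Cort+/+ and 0.485 and 0.706 RPKM in Cort-/-. *Dcn* overlapped between the genotypes, and *Lum* did not exceed 0.0643 RPKM. The part of cells bearing pericyte or fibroblast markers in the differences of *Cacna1c*, *Cacng7* and *Cacna2d1* was not tested. Under OGD-R the pericyte marker sums overlapped, at 17.8 to 23.8 RPKM in Cort+/+ and 15.9 to 18.4 RPKM in Cort-/-, and so did the fibroblast sums.

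The second question is whether the genotypes differ after oxygen and glucose deprivation. Under OGD-R again no channel gene passed the adjusted threshold in limma, and 0% of the 13833 genes tested did. Unadjusted p was under 0.05 for 2 of 17, against 3.69% of all genes tested. These were *Cacng7*, with a log2 difference of -0.69 (SE 0.23, adjusted p = 1.00 by limma), and *Kcnf1*, at 0.42 (SE 0.16, the same adjusted p by limma). *Cacna1c* at -0.44, *Kcnq1* at 0.45 and *Trpv4* at 0.62 followed, with intervals that include 0. The median log2 difference was 0.11 for the channel genes and -0.01 for all genes. With no filter on level, 2 of 119 channel genes had p under 0.05 (1.68%), below the 3.42% of all genes. No channel gene had p under 0.05 when both libraries low in ribosomal RNA were left out, nor without Cort-/- replicate 1, Cort-/- replicate 3 or Cort+/+ replicate 3 alone, and 1 did without Cort+/+ replicate 1 or 2, with 2.41% to 6.53% of all genes under 0.05 when 1 library was left out and 7.17% when both were. The differences stayed of similar size with 1 library left out, from -0.90 to -0.56 for *Cacng7* and from 0.35 to 0.49 for *Kcnf1*. The fits without a Cort-/- library hold a single one and take it to vary like the Cort+/+ libraries.

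**Figure D3:**
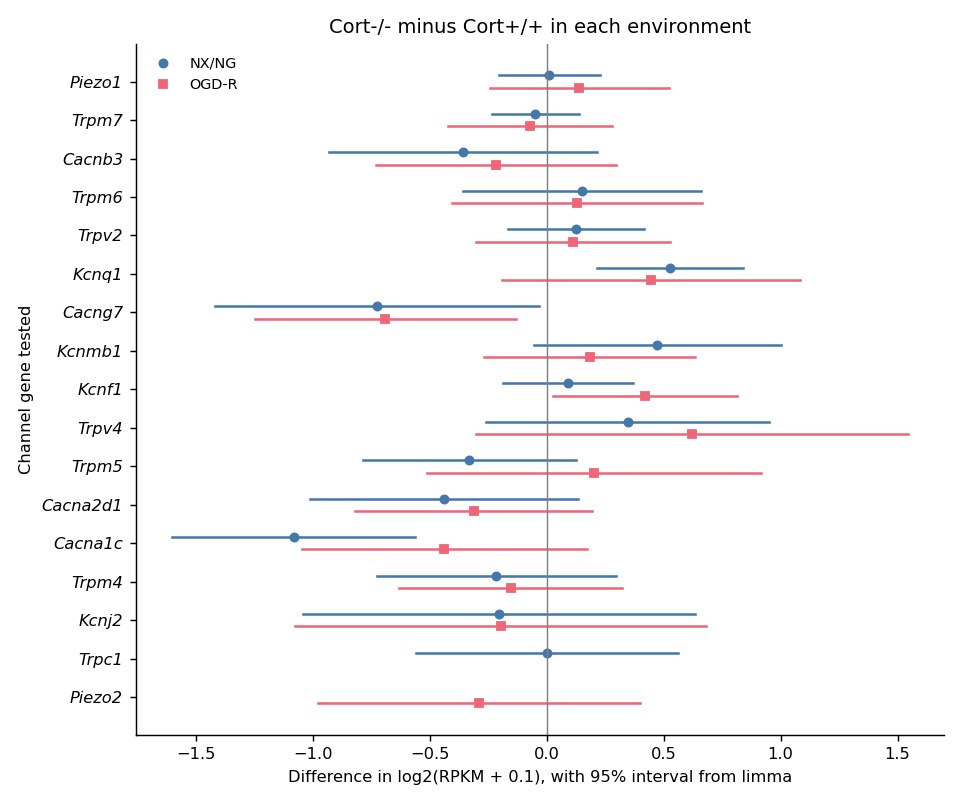
Difference between Cort-/- and Cort+/+ in log2(RPKM + 0.1) for channel genes tested, with the 95% interval from limma (not adjusted for the number of genes), under NX/NG (circles) and OGD-R (squares). *Cacna1c* is lowest under NX/NG at -1.08 and *Cacng7* is near -0.7 in both environments.

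With all 10 libraries in a single fit that held the environment as a term, 28 of 13789 genes (0.203%) were called between genotypes by limma and no channel gene was among them. Unadjusted p was under 0.05 for 6 of 17 channel genes, against 15.5% of all genes tested. In *Cacna1c* the log2 difference was -0.76 (SE 0.18, adjusted p = 0.0988 by limma), and limma-voom called it at -0.80 with an adjusted p of 0.0427, 1 of 142 genes so called (1.03%). *Cacng7* differed by -0.70 (SE 0.18, adjusted p = 0.130 by limma) and *Kcnq1* by 0.49 (SE 0.15, adjusted p = 0.170 by limma). With a covariate for low ribosomal RNA in the fit, *Kcnq1* differed by 0.53 and was called by limma with an adjusted p of 0.0499, 1 of 50 genes so called (0.363%). The other 3 were *Cacna2d1* at -0.37, *Kcnf1* at 0.26 and *Kcnmb1* at 0.33, with adjusted p by limma between 0.221 and 0.316. These are the same libraries as in the separate comparisons and no further evidence. The medians were 0.01 for the channel genes and 0.00 for all genes. With no filter on level, 9 of 112 channel genes had an unadjusted p under 0.05 in limma (8.04%), below the 11.1% of all genes.

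The third question is what deprivation and reoxygenation change within a genotype. In Cort+/+ no channel gene was called by limma, nor was any of the 13805 genes tested (0%), and 2 of 17 channel genes had an unadjusted p under 0.05, against 6.69% of all genes. *Kcnf1* was lower after OGD-R by a log2 difference of -0.33 (SE 0.12, adjusted p = 0.727 by limma) and *Trpm7* by -0.21 (SE 0.08, adjusted p = 0.729 by limma). *Trpm5* followed at -0.47, then *Trpm4* at 0.21 and *Piezo2* at 0.25, with intervals that include 0. None had p under 0.05 without Cort+/+ NX/NG replicate 1 or 2 or without Cort+/+ OGD-R replicate 2, and 1 had without Cort+/+ NX/NG or OGD-R replicate 3, with 4.52% to 9.21% of all genes at that p when 1 library was left out.

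In Cort-/-, 0 of 17 channel genes had an unadjusted p under 0.05 in limma, against 3.73% of all genes, and none of 13730 genes was called (0%). By limma-voom 1 channel gene, *Cacna1c*, had an unadjusted p under 0.05, as had 3.98% of all genes. The 5 lowest p belonged to *Kcnmb1* at a log2 difference of -0.45, *Cacna1c* at 0.62, *Trpm7* at -0.24, *Kcnq1* at -0.26 and *Cacnb3* at 0.21. The last of these turned to -0.018 without Cort-/- OGD-R replicate 3. Without Cort-/- OGD-R replicate 1, the library with the highest endothelial marker sum, 5 of 16 channel genes had p under 0.05, among them *Cacnb3*, *Kcnmb1*, *Kcnq1* and *Trpm7*, and so had 17.0% of all genes. The Cort-/- OGD-R library left in that fit is replicate 3, 1 of those low in ribosomal RNA, and is taken to vary like the other group. The pericyte markers *Pdgfrb* and *Cspg4* were higher after OGD-R in Cort-/-, at 9.98 and 11.8 RPKM against 5.17 and 7.66 RPKM for *Pdgfrb*. *Rgs5*, also tested, did not rise, at 1.56 and 0.983 RPKM against 1.46 and 1.06 RPKM, a log2 difference of -0.08. In the same libraries *Cacna1c* was at 1.17 and 1.37 RPKM against 0.852 and 0.655 RPKM. Whether cells bearing these markers took part in the difference of *Cacna1c* was not tested.

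Whether the response to OGD-R differed between genotypes was tested by the product of both terms. No channel gene was called by limma, nor was any of 13789 genes (0%), and 0 of 17 channel genes had an unadjusted p under 0.05, against 1.66% of all genes. By limma-voom *Cacna1c* alone had an unadjusted p under 0.05, as had 1.33% of all genes. Its difference between responses on the log2 scale was 0.70 by limma-voom and 0.64 by limma (SE 0.30, 95% interval from limma -0.05 to 1.33). By limma that of *Kcnf1* was 0.33, of *Trpm5* 0.53, of *Kcnmb1* -0.30 and of *Piezo1* 0.12. Thus the larger genotype difference of *Cacna1c* under NX/NG than under OGD-R did not pass the test of that difference in limma. Without Cort+/+ OGD-R replicate 1, *Cacna1c* and *Kcnf1* had p under 0.05, with 3.60% of all genes, and without Cort-/- NX/NG replicate 1 *Cacna1c* had, with 2.23% of all genes.

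Over both genotypes, 10 of 13789 genes (0.0725%) were called between environments by limma, and no channel gene was. *Trpm7* was the single channel gene of 17 with an unadjusted p under 0.05, against 12.1% of all genes, at a log2 difference of -0.22 (SE 0.07, adjusted p = 0.323 by limma). The other low p were those of *Kcnf1* at -0.20, *Trpm4* at 0.23, *Kcnmb1* at -0.27 and *Trpm5* at -0.26. The number was 2 without Cort-/- NX/NG replicate 2, Cort+/+ NX/NG replicate 1, Cort-/- OGD-R replicate 3 or Cort+/+ OGD-R replicate 2, each taken alone, with 9.06% to 11.1% of all genes at that p. Environment medians were -0.09 for the channel genes and 0.00 for all genes.

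**Figure D4:**
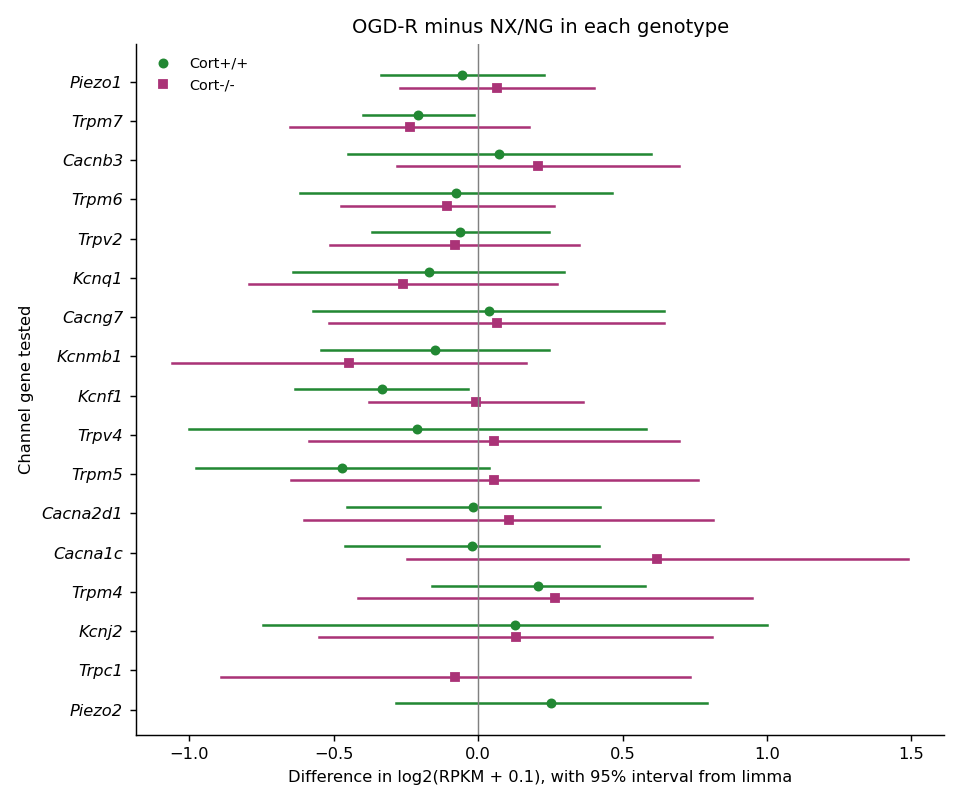
Difference between OGD-R and NX/NG in log2(RPKM + 0.1), on a scale set over both environments, for channel genes tested, with the 95% interval from limma (not adjusted for the number of genes), in Cort+/+ (circles) and Cort-/- (squares). The intervals of *Trpm7* and *Kcnf1* in Cort+/+ lie below 0, and all others shown include it.

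The level of *Kcnk1* differed widely between libraries of 1 group and is set beside marker sums here. *Kcnk1*, a two-pore potassium channel known from epithelia, was at 0.749 RPKM in Cort+/+ NX/NG replicate 2, 0.458 RPKM in Cort-/- OGD-R replicate 1 and 0.176 RPKM in Cort-/- NX/NG replicate 2, and at most 0.0374 RPKM in the other 7 libraries. In those 3 libraries the 5 epithelial markers, among them *Epcam*, *Cdh1* and *Krt8*, summed to 50.0, 37.6 and 13.7 RPKM, the highest sums of all, and elsewhere to between 1.43 and 8.83 RPKM. These values are set side by side for 10 libraries, and whether epithelial cells took part in them was not tested.

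**Figure D5:**
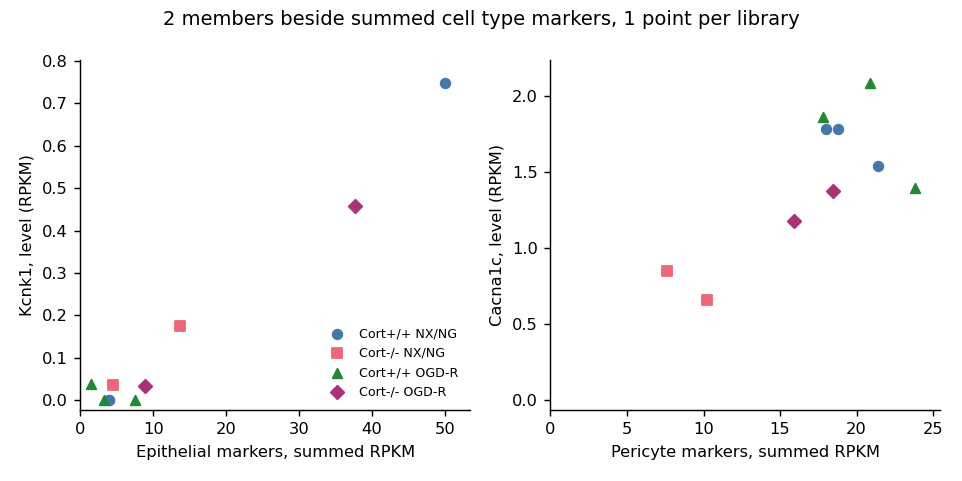
Levels (RPKM) of *Kcnk1* and *Cacna1c* against the summed RPKM of the epithelial and the pericyte markers, 1 point per library, with colour and shape for the 4 groups. *Kcnk1* exceeds 0.1 RPKM only in the 3 libraries with the highest epithelial sums, and *Cacna1c* is lowest, at 0.852 and 0.655 RPKM, in the 2 Cort-/- NX/NG libraries, which have the lowest pericyte sums.

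Lists of genes that handle calcium and potassium beside these channels were read against the same shares of all genes. Of 41 calcium-handling genes (store-operated entry, endoplasmic reticulum release, pumps, exchangers and calmodulin targets), 30 were tested, and under NX/NG 1 was higher and 1 lower in Cort-/- at an unadjusted p under 0.05, which 13.3% of all genes reached. The lower one was *Atp2b4*, a calcium pump of the plasma membrane, at 2.38, 1.78 and 1.45 RPKM in Cort+/+ against 0.853 and 0.771 RPKM in Cort-/-, with non-overlapping groups and a log2 difference of -1.09 (SE 0.25, adjusted p = 0.264 by limma). Of 10 genes for potassium pumps and cotransporters, 7 were tested, with 2 higher and 1 lower at that p. The lower one was *Atp1b1*, the beta subunit of the sodium-potassium pump, at 10.8, 13.7 and 9.51 RPKM in Cort+/+ against 5.62 and 6.23 RPKM in Cort-/-. Under OGD-R *Atp1b1* overlapped, at 9.12, 8.77 and 8.72 RPKM against 8.91 and 8.23 RPKM. Under OGD-R *Atp2b4* had p under 0.05 in the same direction, and no gene of the pump list had, against 3.69% of all genes.

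Of 26 cation channel genes outside the name rule, with the channels and subunits related to them, 15 were tested. Under NX/NG 2 were higher and 1 lower at an unadjusted p under 0.05, against 13.3% of all genes. Under OGD-R 1 was higher, against 3.69% of all genes. *Ano1*, a calcium-activated chloride channel placed in this list for its tie to calcium signals, was at 24.8, 27.1 and 33.2 RPKM in Cort+/+ NX/NG, 37.4 and 41.7 RPKM in Cort-/- NX/NG, 23.8, 22.7 and 23.2 RPKM in Cort+/+ OGD-R, and 40.0 and 34.0 RPKM in Cort-/- OGD-R. All Cort-/- libraries were above all Cort+/+ libraries. Over both environments *Ano1* rose by 0.58 on the log2 scale (SE 0.09, adjusted p = 0.0475 by limma). It was 1 of the 28 genes called there, but its adjusted p exceeded 0.05 in 11 of 18 alternatives, reaching 0.186. Leaving out any 1 library except Cort+/+ NX/NG replicate 3 or Cort-/- OGD-R replicate 3 ended the call, at log2 differences of 0.51 to 0.63. In that fit the calcium-handling list held 4 genes higher and 1 lower at an unadjusted p under 0.05, the list of other cation channels 4 and 1, and the pump list 0 and 1, against 15.5% of all genes. Between environments in Cort+/+, 0 calcium-handling genes had p under 0.05, against 1 of the other cation channels, which was lower, and 2 of the pump list, both lower, with 6.69% of all genes at that p. In Cort-/- *Rcan1*, an inhibitor of calcineurin, was lower, *Atp1b1* was higher and no other cation channel had p under 0.05, against 3.73% of all genes. *Atp1b1* was also the single gene of the 3 lists with p under 0.05 in the test of the interaction (1.66% of all genes), at 0.85 on the log2 scale (SE 0.19, adjusted p = 1.00 by limma). Over both genotypes, 3 calcium-handling genes and 2 of the pump list were lower after OGD-R at that p, and 1 other cation channel was higher and 1 lower, with 12.1% of all genes at that p.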

How the data were processed

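RPKM per gene were deposited for libraries that the labels place in the 4 groups, in 2 tables scaled separately (NX/NG and OGD-R). Per the labels and the methods, polyadenylated RNA was read on an Illumina instrument, and the submitters' processing notes name edgeR; aligner, genome build and strand setting are not given in the sources used here. Of 12 samples listed, 10 had a column. A further 10 category columns and the tables of the authors' own comparisons were not used. Whole reads were recovered from the deposited RPKM (at least 99.9958% of values within 0.05 of a whole number). Genotypes were compared on the deposited RPKM, and environments on RPKM recomputed over the genes in both tables with the trimmed mean of M values, which moved values by -0.04 to 0.04 on the log2 scale. limma 3.58.1 (R 4.3.3) was fitted to log2(RPKM + 0.1) with a trend, over genes averaging 1 RPKM or more in the libraries compared, with Benjamini-Hochberg adjustment over all genes tested; fold changes of low genes are understated on this scale. limma-voom on recovered reads was an alternative. Steps were tested on simulated data. Named were channel genes at a group mean of 1 RPKM, the 5 lowest p in each comparison, and genes known from brain vessels; *Cspg4*, *Higd1b* and *Slco1a4* are from the marker lists. The values of some channel genes are not reported here. Members and lists were chosen with earlier results of these data known. Exons are from GENCODE vM21 (GRCm38); for 118 of 127 genes their summed length equalled the deposited length. p-values and intervals rest on the spread between cultures of pooled mice.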

Additional observations from a re-analysis of the deposited data

How the results depend on the processing

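With 3 against 2 libraries in a group, only large differences could pass the adjusted threshold, and channel genes under 1 RPKM rest on few reads. Of the gene differences recomputed under alternatives, 524 kept direction and side of the threshold, 11 lost a call (all *Ano1*), 3 gained one and 2 reversed. Both reversals were of *Cacnb3* between environments in Cort-/-, at -0.018 with a covariate for low ribosomal RNA and without Cort-/- OGD-R replicate 3. That replicate is the only library low in ribosomal RNA in this comparison, so these settings amount to the same fit. Without Cort-/- OGD-R replicate 1 the difference was 0.43. Over both environments *Cacna1c* ran from -0.87 to -0.45, *Cacng7* from -0.81 to -0.56 and *Kcnq1* from 0.40 to 0.59.

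The number of channel genes called rose from 0 to 1 by limma-voom under NX/NG and over both environments (*Cacna1c*), and to 1 with the ribosomal RNA term over both environments (*Kcnq1*). Numbers at an unadjusted p under 0.05 are given with the number of channel genes tested where it is not 17, and with the share of all genes at that p. Between genotypes under NX/NG it was 7 of 120 without a filter (8.39%), 7 of 50 with a filter of 10 reads (14.2%), 5 by limma-voom (15.7%), 5 with the replicate block (15.7%), and 2 to 6 without 1 replicate (6.74% to 18.0%). Under OGD-R it was 4 by limma-voom (3.28%), 1 with the block (1.69%), 0 without both libraries low in ribosomal RNA (7.17%), and 0 to 1 without 1 replicate (2.41% to 6.53%). Between environments in Cort+/+ it was 4 of 112 without a filter (5.48%), 5 of 49 with 10 reads (6.59%), 1 with the block (6.78%), 1 with all groups in 1 fit (5.96%), and 0 to 2 without 1 replicate (4.52% to 9.21%). In Cort-/- it was 2 of 46 with 10 reads (4.04%), 1 by limma-voom (3.98%), 1 with all groups in 1 fit (5.19%), and 0 to 5 without 1 replicate (2.35% to 17.0%). For the interaction it was 2 of 49 with 10 reads (1.88%), 1 by limma-voom (1.33%), and 0 to 2 without 1 replicate (1.35% to 5.08%). For genotype over both environments it was 11 of 49 with 10 reads (16.2%) and 4 to 7 without 1 replicate (10.7% to 20.7%). For environment over both genotypes it was 4 of 112 without a filter (8.24%), 6 of 49 with 10 reads (12.0%), 2 by limma-voom (12.7%), 2 with the ribosomal RNA term (10.3%), 2 without both such libraries (9.95%), and 1 to 2 without 1 replicate (8.80% to 16.1%). Without a filter, the number was 2 of 119 between genotypes under OGD-R (3.42%). For genotype over both environments without a filter it was 9 of 112 (11.1%). Fits without 1 replicate tested 15 to 18 channel genes. The causes were not tested beyond the larger or smaller set of genes or libraries that a setting holds. At 2 RPKM, 9, 10, 8 and 10 channel genes were expressed in Cort+/+ NX/NG, Cort-/- NX/NG, Cort+/+ OGD-R and Cort-/- OGD-R, and at 0.5 RPKM 26 in Cort-/- OGD-R.

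Correlations of same-numbered samples' deviations ran from -0.53 to 0.19 over 12 pairs, with no clear sign that the numbers pair the samples. In a Cort-/- group of 2 libraries both deviations mirror each other, so this check cannot exclude pairing. No paired analysis was possible for environment in Cort-/- because the block left no residual degrees of freedom. Leaving out both libraries low in ribosomal RNA was chosen after seeing the data.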
